A study of Mus musculus with 51 samples.

Results

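The effect of Roux-en-Y gastric bypass (RYGB) on the jejunum was compared with its effect on the duodenum of the same animals. Every gene listed in both the duodenum table and the jejunum table was taken, which gave 10663 genes of 10930 and 11021 in those tables. The animals were the 8 mice whose codes occur in both tables, 5 sham (W11, W12, W14, W15 and W3) and 3 RYGB (R2, R4 and R5), so that 16 of the 51 libraries of the series entered the comparison. All were male C57Bl6 mice with diet-induced obesity, killed 9 weeks after surgery, at 10 in the morning following an overnight fast. Both groups received a liquid elemental diet after the operation and were later brought back to high-fat food. The sham mice were given less food, to keep their weight at that of the RYGB mice, so the operation and the feeding regimen cannot be told apart. Villi were scraped from each segment after EDTA. The limb that a jejunal sample came from (the limb that carries food or the part beyond the join) was not given in the sources used here.

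The upper small intestine changes along its length. The duodenum is a main site of iron and folate uptake and of active calcium uptake. Its enterocytes carry alkaline phosphatases and the iron exporter ferroportin. The jejunum takes up most amino acids, peptides and fat, and fatty acid and drug-metabolising enzymes are abundant there. In RYGB, food passes from a stomach pouch to the jejunum and bypasses the duodenum, which receives only bile and digestive secretions. The design asks how far the segments differ in sham animals, and whether RYGB moves both to the same extent.

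In sham animals the segments differed in 469 genes (limma, paired by animal, Benjamini-Hochberg adjusted p below 0.05). Of the genes tested, 295 (2.77%) were higher in jejunum and 174 (1.63%) lower. In the 3 RYGB animals 19 genes (0.178%) were higher in jejunum and 69 (0.647%) lower, with fewer animals behind the test. The segment by surgery term is the RYGB minus sham difference in jejunum less the same difference in duodenum, on the log2(CPM + 1) scale (CPM, read counts scaled to a common library total), and is called the segment term here. It passed the threshold in 256 genes (2.4%): 56 were positive (0.525%) and 200 negative (1.88%). A positive value means that RYGB moved the gene up in jejunum relative to duodenum. The median of the segment term over all genes was -0.15. It was 0.077 without R2 and -0.31 without R4, so the medians given for gene lists stand on a baseline that turns with 1 animal. Of all genes, 59.9% had a term below 0, and at an unadjusted limma p below 0.05 there were 1549 negative (14.5%) and 621 positive ones (5.82%). After median-of-ratios scaling the median was -0.021 and the calls became 82 positive and 120 negative, so the excess of negative calls is smaller on that scale.

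Most called genes shared a shape. All 56 genes with a positive term were lower in jejunum than in duodenum in sham animals, and 46 of them were higher in jejunum in RYGB animals. Among the 200 genes with a negative term, 195 were higher in jejunum in sham animals and 190 were lower there in RYGB animals. The direction of the segment difference was thus opposite in the groups for 82.1% of the positive and 92.5% of the negative genes, against 55.5% of all 10663 genes. The same differences enter the term itself, so these shares describe the called genes and are no separate test. The differences of the 3 RYGB animals all lay above those of the 5 sham animals for 56 of the 56 positive genes (3.75% of all genes tested), and all below them for 197 of the 200 negative ones (9.85% of all genes). In the positive set the RYGB minus sham difference was below 0 in duodenum for 49 genes and above 0 in jejunum for 52. In the negative set it was above 0 in duodenum for 171 genes and below 0 in jejunum for 199. Over all genes it was above 0 in duodenum for 68.5% and in jejunum for 56.8%. The jejunal difference was the larger in size for 40 of the 56 and 146 of the 200, against 50.8% of all genes.

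**Figure D1:**
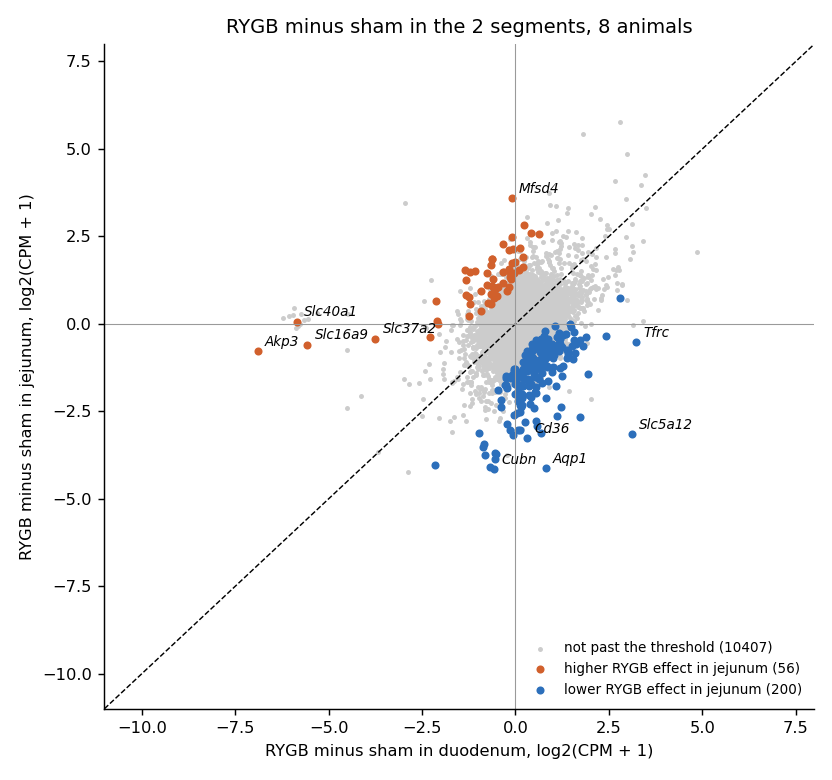
RYGB minus sham in duodenum (horizontal axis) against RYGB minus sham in jejunum (vertical axis), both in log2(CPM + 1), 1 point per gene over 5 sham and 3 RYGB animals. The dashed line marks equal effects: the 56 genes with a positive segment term lie above it and the 200 with a negative term below it, with Akp3 and Slc40a1 far to the left at jejunal values near 0.

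Within a single segment, the same 8 animals gave 0 genes higher and 13 lower (0.122%) in RYGB duodenum, with 2022 genes at an unadjusted limma p below 0.05. Without R4 the duodenum gave 926 genes higher and 125 lower, and without W3 142 higher and 70 lower. The low count in duodenum and its direction thus rested on single animals. In jejunum 349 genes (3.27%) were higher and 379 (3.55%) lower. Of the 256 genes with a called segment term, 6 passed in duodenum, all in the positive set, and 114 in jejunum, 19 positive and 95 negative.

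Several libraries stood apart from others of their group or segment. Pancreatic acinar transcripts (18 genes) made up 6.02%, 8.88% and 6.14% of the CPM in the sham duodenum of W11, W12 and W14, and at most 0.0814% in the other 5 paired duodenum libraries. The sham duodenum of W3 correlated best, at 0.981 across genes on the log2 scale, with the RYGB duodenum of R4. The RYGB jejunum of R5 correlated best with a sham jejunum, at 0.961. Across segments, the sham duodenum of W15 correlated best with the sham jejunum of W12 (0.978), the RYGB duodenum of R2 with the RYGB jejunum of R5 (0.954) and the RYGB jejunum of R2 with the RYGB duodenum of R4 (0.954). Without W15 there were 73 positive and 239 negative genes, and without R2 20 and 43. Without W11, W12 and W14, which leaves 2 sham animals, no gene passed (0 positive, 0 negative, 829 at an unadjusted limma p below 0.05). All 256 genes then kept their sign and 252 had an unadjusted limma p below 0.05. The median term went from 1.87 to 1.83 in the positive set and from -1.83 to -1.59 in the negative set. For the 56 positive and 197 negative genes whose groups do not overlap, leaving out animals cannot turn the sign. The 256 genes were also chosen with the remaining animals included, so these counts are no separate test. Without W3 and R5, 33 genes were positive and 99 negative. The part of pancreatic tissue in these results beyond those values was not tested.

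The intestinal alkaline phosphatase Akp3 had the largest term of the 56 positive genes. Over all genes 5 had larger ones, up to 6.42, that did not pass. Akp3 (ENSMUSG00000036500, chr1:87124973-87127912, plus strand, GRCm38) encodes the brush border phosphatase that is largely confined to the duodenum in mice. In sham duodenum it stood at 4375, 2389, 6107, 1856 and 1303 CPM (animals in the order W11, W12, W14, W15, W3, as in all lists that follow). In RYGB duodenum it stood at 47.5, 23.2 and 9.4 CPM (order R2, R4, R5). Jejunum held 16.2, 7.5, 1.9, 1.2 and 3.5 CPM in sham and 1.6, 2.3 and 2.4 CPM in RYGB animals. The duodenal groups did not overlap and the jejunal ones did. The segment term was 6.11 (SE 0.77, adjusted p = 0.0094), made up of a fall of 6.90 in duodenum (SE 0.56, adjusted p = 0.00076) and a jejunal difference of -0.78 (SE 0.60, adjusted p = 0.44). It passed without each of the 8 animals in turn. The related Alpi, which both segments express, had a term of 0.91 (SE 0.37, adjusted p = 0.19). Its duodenal values of 2178 to 4106 CPM in sham and 792 to 1354 CPM in RYGB animals did not overlap.

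Iron genes moved in both directions. Of 14 iron genes measured, 3 had a positive term (the exporter Slc40a1, the ferritin heavy chain Fth1 and Ncoa4, which delivers ferritin for breakdown) and 2 a negative one (the transferrin receptor Tfrc and the haem exporter Mfsd7b, named Flvcr1 in GENCODE). The other 9 did not pass. Over all genes 0.525% were positive and 1.88% negative. The list's median term was 0.65, against -0.15 over all genes. The ferrireductase gene Cybrd1 was listed in the duodenum table only, so it had no term. In duodenum it stood at 121.7, 16.8, 47.6, 27.4 and 2.4 CPM in sham and at 1.0, 0.0 and 0.6 CPM in the paired RYGB animals. Slc40a1 (chr1:45908068-45926523, minus strand), which encodes ferroportin, the exit route for iron at the base of the enterocyte, had sham duodenum values of 3034, 1044, 1321, 1145 and 392 CPM. Its RYGB duodenum values were 55.5, 10.8 and 10.5 CPM. In jejunum it held 5.3, 3.3, 4.4, 7.0 and 4.7 CPM in sham and 4.0, 9.0 and 3.5 CPM in RYGB animals. Every sham duodenum was at least 392 CPM and every other paired library at most 55.5 CPM. The term was 5.91 (SE 0.74, adjusted p = 0.0091) and passed without each animal in turn.

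Fth1 (chr19:9980598-9985098, plus strand) stood at 4113, 5318, 8622, 3083 and 4501 CPM in sham duodenum and at 1327, 1215 and 846 CPM in RYGB duodenum. Its jejunal values were 739.8, 962, 236, 422 and 805 CPM in sham and 804, 1307 and 675 CPM in RYGB animals. The duodenal groups were apart and the jejunal groups overlapped. The term was 2.78 (SE 0.57, adjusted p = 0.03), and that of Ncoa4 was 2.2 (SE 0.46, adjusted p = 0.031). Both fell in duodenum, Fth1 by 2.12 (adjusted p = 0.041) and Ncoa4 by 2.11 (adjusted p = 0.044).

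Tfrc (chr16:32608920-32632794, plus strand), the receptor through which cells take up iron from blood, had the opposite term. It stood at 27.4, 44.1, 11.2, 163 and 26.3 CPM in sham duodenum and at 1247, 41.1 and 786 CPM in RYGB duodenum. Jejunum held 269, 220.1, 163, 291 and 76.9 CPM in sham and 161, 41.5 and 315 CPM in RYGB animals. R2 and R5 were far above every sham duodenum, while R4 lay within the sham range. The term was -3.74 (SE 0.76, adjusted p = 0.036), and the duodenal difference alone was 3.22 (SE 1.24, adjusted p = 0.23). Mfsd7b had a term of -2.52 (SE 0.48, adjusted p = 0.025) and fell in jejunum by 2.10 (adjusted p = 0.021). Slc25a37, the mitochondrial iron importer, is in no list here but was among the 15 largest negative terms at -3.38 (SE 0.56, adjusted p = 0.017). The apical iron importer Slc11a2 had a term of 0.81 (SE 0.40, adjusted p = 0.28), and the ferroxidase Heph 0.37 (SE 0.29, adjusted p = 0.5). Calls for these iron genes rested on single animals in part. Fth1 missed the threshold without W12, R2, R4 or R5 (adjusted p up to 0.095), Tfrc without W11, W12, W14, R2 or R5 (up to 0.12), and Mfsd7b without W12, R2, R4 or R5 (up to 0.067). Ncoa4 kept its call only without W15 or W3 (adjusted p up to 0.088 otherwise), and Slc25a37 lost it without R2 or R5 (up to 0.057).

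**Figure D2:**
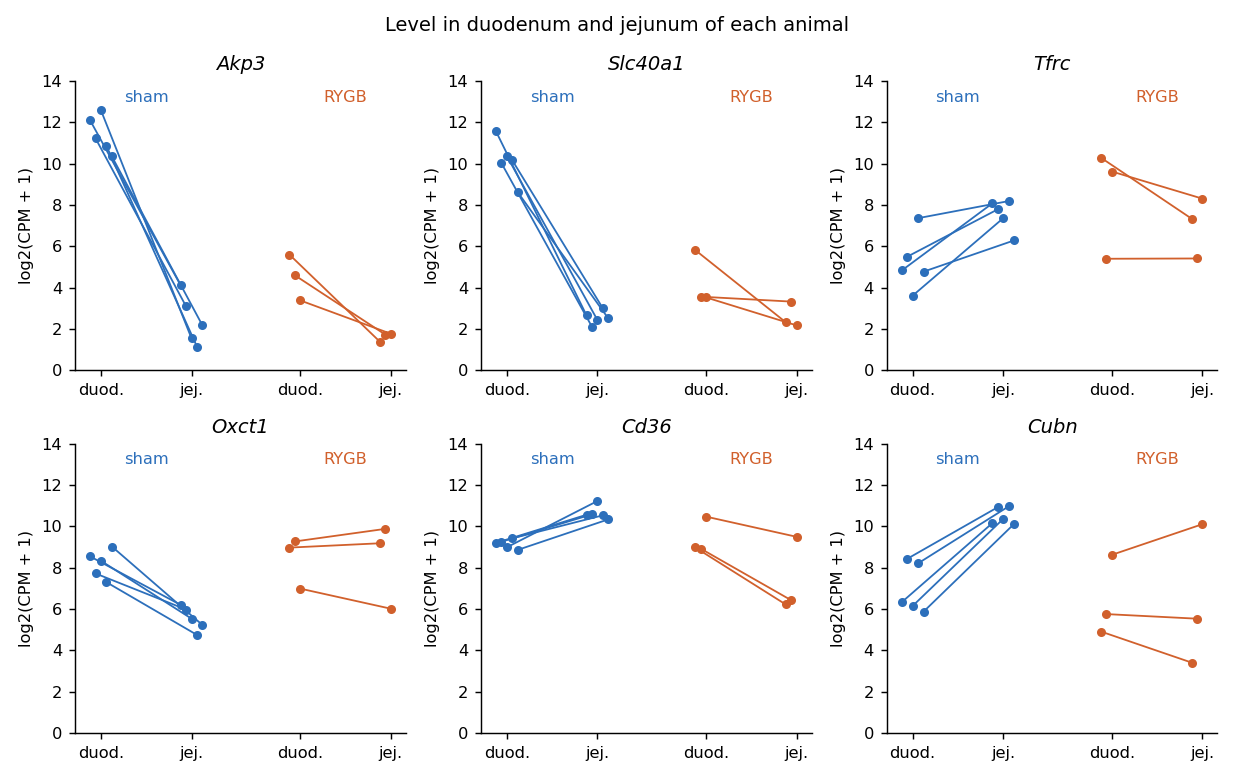
Level in log2(CPM + 1) of 6 genes in duodenum and jejunum, each line joining the segments of 1 animal (5 sham in blue, 3 RYGB in orange). Lines for Akp3 and Slc40a1 drop further in each of the 5 sham animals than in any of the 3 RYGB animals, and those for Tfrc and Cd36 go up in sham and level or down in RYGB animals.

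Other duodenal genes had the same form as Akp3. The 10 genes whose log2 levels ran most like those of Akp3 over the 16 libraries were Slc16a9 (Pearson r 0.985), Slc37a2 (0.978), Slc40a1 (0.974), Ncoa4 (0.967), Greb1, Slc46a1, Ephx1, Fth1 (0.926), Aldh4a1 and Prdm16 (0.918), a description over libraries that share animals and segments. Slc16a9, of the monocarboxylate transporter family, stood at 344, 366, 265, 316 and 67.5 CPM in sham duodenum and at 18.3, 1.9 and 1.2 CPM in RYGB duodenum. It was at most 3.1 CPM in every jejunum. Its term was 4.98 (SE 0.82, adjusted p = 0.017), and without R5 it missed the threshold (adjusted p = 0.051). Slc37a2, a sugar-phosphate antiporter, stood at 79.2, 57.0, 71.6, 29.0 and 22.6 CPM in sham and 4.3, 2.6 and 1.3 CPM in RYGB duodenum, with 2.8 CPM at most in jejunum. Its term of 3.33 (SE 0.53, adjusted p = 0.011) passed without each animal in turn. For Slc16a9 and Slc37a2 the duodenal groups were apart, and both genes fell there, by 5.57 (adjusted p = 0.039) and 3.75 (adjusted p = 0.0064).

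A few duodenal genes fell without a called segment term. Slc46a1, the proton-coupled folate transporter, fell by 1.88 in duodenum (adjusted p = 0.039) and had a term of 1.22 (SE 0.30, adjusted p = 0.056). Scarb1, the scavenger receptor for lipoproteins and lipid-soluble vitamins, fell by 4.50 in duodenum (adjusted p = 0.0016), with a jejunal difference of -2.41 (adjusted p = 0.067) and a term of 2.10 (SE 0.69, adjusted p = 0.12). The transcription factors Meis2 and Foxq1 fell in both segments: Meis2 by 2.84 in duodenum and 1.72 in jejunum, Foxq1 by 2.42 and 1.33 (adjusted p from 0.021 to 0.044). Their terms were 1.12 (SE 0.41, adjusted p = 0.15) and 1.08 (SE 0.49, adjusted p = 0.24). The calcium-binding protein S100g, which carries calcium through the enterocyte, had a term of 2.08 (SE 0.56, adjusted p = 0.068). Among 7 calcium genes measured, 0 passed by limma, with 3 at an unadjusted p below 0.05. Of these 2 were positive and 1 negative, against 5.82% and 14.5% of all genes.

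Another set of positive genes differed mainly in jejunum. Mfsd4 (Mfsd4a in GENCODE), a membrane transporter-like protein, stood at 45.5, 27.2, 34.2, 24.8 and 59.4 CPM in sham duodenum and 36.5, 78.1 and 13.3 CPM in RYGB duodenum. Jejunum held 4.0, 3.8, 11.7, 8.0 and 7.7 CPM in sham and 207, 139.8 and 24.3 CPM in RYGB animals. The duodenal groups overlapped and the jejunal ones did not. The term was 3.69 (SE 0.50, adjusted p = 0.0091) and passed without each animal in turn, and the jejunal rise was 3.59 (SE 0.64, adjusted p = 0.018). Slc9a3, the apical sodium-proton exchanger, had jejunal values of 86.2, 98.4, 87.4, 74.2 and 98.7 CPM in sham and 624, 1107 and 185 CPM in RYGB animals. Its duodenal values ran from 89.8 to 433 CPM in sham and from 118 to 393 CPM in RYGB animals. The term was 2.58 (SE 0.47, adjusted p = 0.023), and it missed the threshold without W14 or R2 (adjusted p up to 0.065).

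Oxct1, the enzyme that starts the use of ketone bodies, stood at 72.3, 61.8, 45.2, 25.8 and 36.4 CPM in sham jejunum and at 579, 940.4 and 63.6 CPM in RYGB jejunum, where R5 lay inside the sham range. Its duodenum held 372, 209.6, 321, 156 and 519 CPM in sham and 501, 616 and 126 CPM in RYGB animals. All 5 sham animals were lower in jejunum than in duodenum, with jejunum minus duodenum between -3.80 and -1.75 on the log2 scale, while it was 0.21 in R2, 0.61 in R4 and -0.97 in R5. The term was 2.60 (SE 0.45, adjusted p = 0.018) and missed the threshold without R2 (adjusted p = 0.058). Clca3 (Clca1 in GENCODE), a secreted goblet cell protein, rose by 1.85 in jejunum (adjusted p = 0.046) and had a term of 2.49 (SE 0.39, adjusted p = 0.01). It was the only called gene among 9 goblet cell markers, where 0.525% of all genes were called positive. Of these markers 8 had a term above 0 (against 40.1% of all genes, list median 0.87). Their summed level ran from 2524 to 5678 CPM in sham jejunum and from 5026 to 7900 CPM in the paired RYGB jejunum libraries. It was 2941 CPM, inside the sham range, in the jejunum of R1, a RYGB animal without a duodenum library. The actin-capping protein Capg (2.87), Gsn (2.61), the kinase Sgk2 (2.56) and Kctd14 (2.46) were further positive genes, each with an adjusted p of at most 0.025. Capg, Sgk2, Kctd14 and Clca3 passed without each animal in turn, and Gsn missed the threshold without W12, W14, R2 or R5 (adjusted p up to 0.085).

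**Figure D3:**
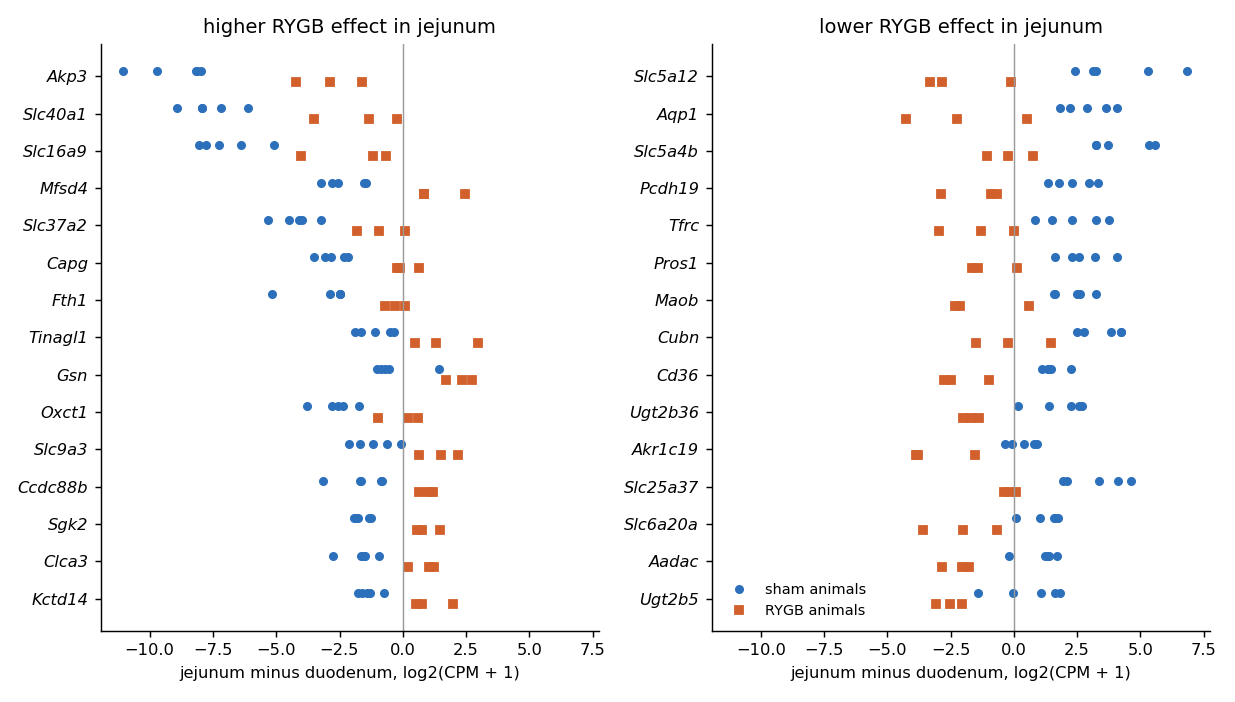
Jejunum minus duodenum within each animal, in log2(CPM + 1), for the 15 largest positive segment terms (left) and the 15 largest negative ones (right) among genes of at least 5 CPM whose groups do not overlap. Blue points are the 5 sham animals and orange squares the 3 RYGB animals; absence of overlap was a condition of the choice.

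Genes of lipid and glucose use were among the positive ones. Fdft1, squalene synthase, was the 1 call among 23 cholesterol synthesis genes and SREBP2 targets, of which 22 had a term above 0 (against 40.1% of all genes, list median 1.09). It stood at 6.3, 2.6, 4.0, 4.6 and 6.2 CPM in sham and 44.3, 57.3 and 13.8 CPM in RYGB jejunum, with no overlap. Duodenum held 4.1 to 13.2 CPM in sham and 5.8 to 12.2 CPM in RYGB animals. Its term was 2.19 (SE 0.44, adjusted p = 0.028), and it was lost without W12, W14, W3, R2 or R4 (adjusted p up to 0.072). With each segment fitted by itself, 14 of the 23 genes passed in jejunum, where 3.27% of all genes were higher and 3.55% lower. The list's median jejunal difference was 1.16. In duodenum 0 of the 23 passed, and over all genes only 0.122% did there. Of 16 fatty acid synthesis genes, the elongase Elovl6 (1.82, SE 0.35, adjusted p = 0.024) and the pyruvate kinase Pklr (1.74, SE 0.32, adjusted p = 0.023) passed, and the list's median was -0.10. Of 28 glycolysis genes and HIF1 targets, Gpi1 passed (1.41, SE 0.31, adjusted p = 0.036), and the median was 0.35. Over all genes 0.525% were called positive. Elovl6 was lost without W14 or R2, Pklr without W12, R2 or R5, and Gpi1 in 6 of 8 fits that each left out 1 animal, with adjusted p up to 0.083.

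Transporters and enzymes were among the negative genes, of which 195 of 200 were higher in jejunum than in duodenum in sham animals. The fatty acid receptor Cd36 (chr5:17781690-17888801, minus strand) stood at 586, 609.6, 506, 684 and 464 CPM in sham duodenum and 504, 485 and 1418 CPM in RYGB duodenum. Jejunum held 1509.7, 1533, 2395, 1482 and 1293 CPM in sham and 73.5, 84.9 and 720.0 CPM in RYGB animals. The jejunal groups did not overlap, and R5 was the highest RYGB animal in both segments. The term was -3.58 (SE 0.40, adjusted p = 0.0048), the smallest adjusted p of all named genes, and passed without each animal in turn. Cd36 was higher in jejunum in sham animals by 1.5 (adjusted p = 0.004) and lower in jejunum in RYGB animals by 2.08 (adjusted p = 0.02). It was the only call among 29 genes of dietary lipid absorption, 15 of which had a term above 0 (median 0.11). Over all genes 1.88% were called negative and 40.1% had a term above 0.

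Cubn (chr2:13276338-13491813, minus strand), cubilin, is a receptor for the vitamin B12 carrier intrinsic factor. In duodenum it stood at 79.4, 343, 69.8, 295 and 57.4 CPM in sham and 29.0, 52.9 and 393 CPM in RYGB animals. In jejunum the values were 1139, 1945, 1314, 2000.4 and 1109 CPM in sham and 9.6, 45.2 and 1100.2 CPM in RYGB animals. R2 and R4 were lower than every sham jejunum by more than an order of magnitude, and R5 was just under the lowest sham value. The term was -3.59 (SE 0.63, adjusted p = 0.024). It missed the threshold without W11, W14 or R2 (adjusted p up to 0.058) and was -4.37 at its furthest from 0 among the fits that left out 1 animal. Of 12 vitamin transport genes 2 were called, both negative, against 1.88% of all genes. The thiamine transporter Slc19a2 was the other call, with a term of -1.88 (SE 0.40, adjusted p = 0.032). Its jejunal values in RYGB animals were 19.9, 17.9 and 21.7 CPM, below all sham values of 55.7 to 87.4 CPM. It was lost without W12, W14, W3, R2 or R5 (adjusted p up to 0.11).

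The most negative terms among solute carriers were those of Slc5a12 and Slc5a4b. Slc5a12, a sodium-coupled lactate transporter, stood at 5.8, 97.0, 30.5, 226 and 119 CPM in sham and 665, 218 and 799 CPM in RYGB duodenum. Its jejunal values were 778, 919, 1253, 1217 and 1055 CPM in sham and 93.3, 21.1 and 744 CPM in RYGB animals. The term was -6.27 (SE 1.17, adjusted p = 0.04), with all sham animals higher in jejunum and all RYGB animals lower. Slc5a4b, of the sodium-glucose transporter family, had jejunal values of 457, 443, 495, 600.5 and 452 CPM in sham and 25.3, 46.0 and 359 CPM in RYGB animals. Its duodenal values were 8.7 to 61.7 CPM in sham and 53.6 to 210.3 CPM in RYGB animals, and its term was -4.40 (SE 0.61, adjusted p = 0.01). The main intestinal glucose transporter Slc5a1 had a term of 0.58 (SE 0.33, adjusted p = 0.35), with levels of 4040.5 CPM or more in every paired library. Slc5a4b passed without each animal in turn, whereas Slc5a12 was lost without W12, W14, W3, R2 or R4 (adjusted p up to 0.11).

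The water channel Aqp1 (chr6:55336432-55348555, plus strand) stood at 311, 252, 379.5, 389 and 294 CPM in sham jejunum and at 4.6, 4.1 and 222 CPM in RYGB jejunum. Duodenum held 17.3 to 83.9 CPM in sham and 105, 23.3 and 156 CPM in RYGB animals. R5 again lay close to the sham jejunum while R2 and R4 were far below it. The term was -4.93 (SE 0.98, adjusted p = 0.042), and of the fits without 1 animal it passed only in that without R5 (adjusted p = 0.0052, and up to 0.12 in the others). In the list of 21 aquaporins and ion transporters the chloride-bicarbonate exchanger Slc26a3 also had a negative term (-1.92, SE 0.37, adjusted p = 0.024), lost without W12, R2 or R4. That list had 1 positive and 2 negative calls, against 0.525% and 1.88% of all genes.

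Peptide and amino acid handling had the largest number of calls among the 29 pathway lists. As a share of the members measured, iron genes (3 positive and 2 negative of 14) and alkaline phosphatases (1 of 2) had more. Of 24 genes measured, 6 had a negative term (Ace, Slc15a1, Slc6a20a, Slc6a20b, Slc7a8 and Slc16a10) and 0 a positive one, by limma, and 21 lay below 0. Over all genes 1.88% were called negative and 59.9% lay below 0. At an unadjusted p below 0.05 there were 14 negative and 0 positive, where all genes gave 14.5% and 5.82%. The median was -1.08, against -0.15 over all genes. The proline transporter Slc6a20a had jejunal values of 2534, 2477, 2140.3, 1822 and 1834 CPM in sham and 39.5, 95.8 and 795 CPM in RYGB animals. In duodenum it held 547 to 1712 CPM in sham and 492, 393 and 1266 CPM in RYGB animals. The jejunal groups were apart and the duodenal groups overlapped. Its term was -3.32 (SE 0.58, adjusted p = 0.022). Slc6a20b is nearly identical in sequence, so reads may be shared between the pair, and its term was -2.92 (SE 0.41, adjusted p = 0.0091).

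The peptide transporter Slc15a1 stood at 1717, 1532, 1382, 1809 and 1838 CPM in sham jejunum and at 523, 521 and 975 CPM in RYGB jejunum. Its duodenum held 452 to 838 CPM in sham and 438 to 745 CPM in RYGB animals. Slc15a1 was higher in jejunum by 1.44 in sham animals (adjusted p = 0.00032), and by 0.14 (adjusted p = 0.78) in RYGB animals. The term was -1.31 (SE 0.27, adjusted p = 0.028) and became -1.17 with an adjusted p of 0.098 after median-of-ratios scaling. The neutral amino acid transporter Slc7a8 had a term of -1.82 (SE 0.35, adjusted p = 0.024) and the peptidase Ace one of -1.80 (SE 0.41, adjusted p = 0.039). The aminopeptidase Anpep, the most abundant gene of the list, had a term of -2.16 (SE 0.64) that did not pass (adjusted p = 0.091). The apical neutral amino acid transporter Slc6a19 had one of -1.0 (SE 0.33, adjusted p = 0.12) and fell in jejunum (adjusted p = 0.016). Slc6a20a was lost without W12 or W14 (adjusted p up to 0.056), Slc15a1 without W12, W3, R2 or R4 (up to 0.086), Slc7a8 without W12, W14, R2 or R4 (up to 0.072) and Ace without all but W15 and R5 (up to 0.1). Slc6a20b passed without each animal in turn.

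Enzymes of drug, retinoid and fatty acid metabolism had negative terms as well. As whole lists, the xenobiotic and fatty acid oxidation genes were about level between the segments in sham animals. Their median jejunum minus duodenum differences were -0.0025 and -0.028, against 0.0028 over all genes. Of 27 xenobiotic metabolism genes 4 passed, all negative (Akr1c19, Ugt2b5, Cyp3a25 and Cyp2b10), 25 lay below 0 and the median was -0.89. The shares over all genes were 1.88% called negative and 59.9% below 0. Members of these families have close relatives, and reads may be divided uncertainly between them. Akr1c19, an aldo-keto reductase, stood at 483, 637, 383, 386 and 153 CPM in sham jejunum and at 25.1, 5.0 and 66.0 CPM in RYGB jejunum. Duodenum held 159 to 488 CPM in sham and 87.0 to 362 CPM in RYGB animals. The jejunal groups were apart while the duodenal ones overlapped, and the term was -3.41 (SE 0.51, adjusted p = 0.01). It passed without each animal in turn, as did the esterase Aadac (-3.31, SE 0.41, adjusted p = 0.0058) and the glucuronosyltransferase Ugt2b36 (-3.51, SE 0.53, adjusted p = 0.01). Cyp2b10 had a term of -3.11 (SE 0.67, adjusted p = 0.04), Ugt2b5 one of -3.17 (SE 0.65, adjusted p = 0.033) and Cyp3a25 one of -2.0 (SE 0.43, adjusted p = 0.034). Each of these 3 was lost in at least 5 of the 8 fits that left out 1 animal (adjusted p up to 0.11).

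Of 13 retinoid genes, the alcohol dehydrogenase Adh1 and the retinol dehydrogenase Rdh7 passed, both negative, and the median was -0.63. Over all genes 1.88% were called negative. Adh1 stood at 1637, 1612, 1599, 1256 and 728 CPM in sham jejunum and at 267, 151 and 447 CPM in RYGB jejunum. Its duodenal values were 641 to 1134 CPM in sham and 629 to 1102 CPM in RYGB animals. The term was -2.49 (SE 0.35, adjusted p = 0.0091) and passed without each animal in turn. Rdh7 had a term of -2.43 (SE 0.51, adjusted p = 0.032) and kept its call only without W15 or R5 (adjusted p up to 0.091 otherwise). Of 22 genes of fatty acid oxidation and PPARA targets, 5 passed, all negative: Cyp4a10 (-3.15), Acot1 (-2.42), Acot2 (-1.72), Vnn1 (-1.31) and Acaa2 (-1.65, named after its value was seen). Each had an adjusted p of 0.022 to 0.047. The list's median was -0.50 and 17 members lay below 0, with the same shares over all genes as for the xenobiotic list. Acot1 was lost without W12, W14 or R2 (adjusted p up to 0.065), and each of the other 4 in at least 5 of the 8 fits. Cyp4a10 fell in jejunum by 3.69 (adjusted p = 0.021), whereas Acot1 was 1.58 higher in RYGB duodenum (adjusted p = 0.13) and 0.84 lower in RYGB jejunum (adjusted p = 0.31).

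Other genes among the 15 largest negative terms were Pcdh19 (-3.81), the anticoagulant protein S gene Pros1 (-3.73) and the monoamine oxidase Maob (-3.60), with adjusted p of 0.01 to 0.024. Pros1 stood at 73.2, 91.6, 120.5, 96.3 and 55.2 CPM in sham jejunum and at 8.0, 7.4 and 33.4 CPM in RYGB jejunum, with 6.3 to 18.7 and 21.4 to 30.4 CPM in the sham and RYGB duodenum. Neither segment's groups overlapped, and they moved in opposite directions. Pcdh19 and Pros1 passed without each animal in turn, and Maob was lost without W11, W12, W14 or R2 (adjusted p up to 0.068).

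Of 30 transcription factors that mark gut segments, 3 passed, all negative (against 1.88% of all genes). At an unadjusted limma p below 0.05 there were 9 negative and 4 positive, against 14.5% and 5.82% of all genes. Among the 3 were Maf (-1.60, SE 0.30, adjusted p = 0.024) and the nuclear receptor Hnf4g (-1.73, SE 0.40, adjusted p = 0.045). The list's median of -0.14 was close to that of all genes. Maf was lost without W12, R2 or R4, and Hnf4g without W12, W3, R2, R4 or R5 (adjusted p up to 0.1). The glucocorticoid receptor Nr3c1 (-1.16, adjusted p = 0.037) and the metal transporter Slc39a8 (-2.03, adjusted p = 0.023) were the single calls of the hormone response and zinc lists. Nr3c1 kept its call only without W11 or W15, and Slc39a8 lost it without W12, W14, R2 or R5. The hypoxia factor Epas1, an inducer of iron transport genes, had a term of 1.44 (SE 0.37, adjusted p = 0.061), and the growth hormone receptor Ghr one of -1.58 (SE 0.41, adjusted p = 0.063).

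**Figure D4:**
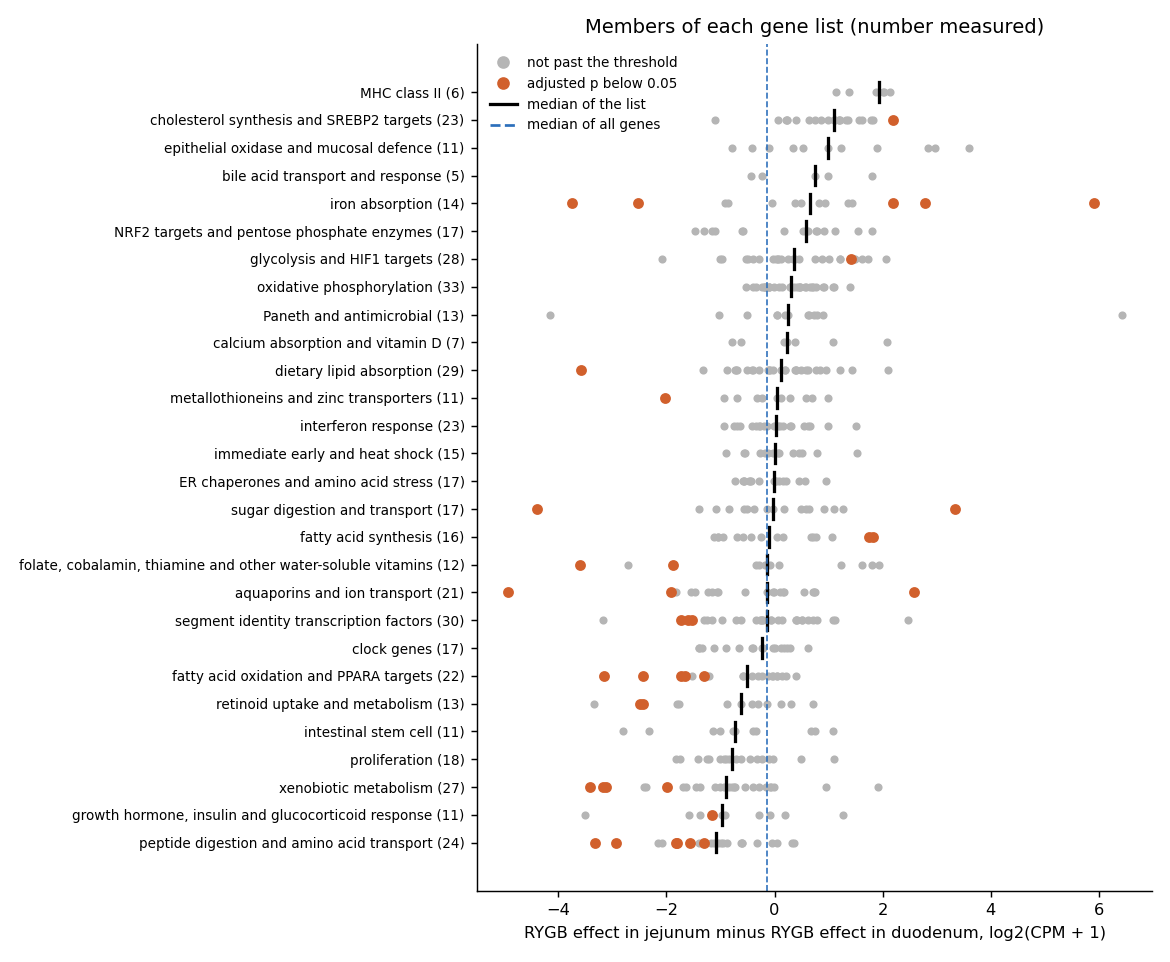
Segment term of each member, in log2(CPM + 1), for the pathway lists with at least 5 measured members. Orange points passed an adjusted p of 0.05, black bars are list medians (from -1.08 for peptide and amino acid genes to 1.94 for MHC class II genes), and the dashed line is the median of all genes at -0.15.

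In 13 of the 29 pathway lists no gene passed the limma test, among them oxidative phosphorylation (0 of 33, 1 at an unadjusted p below 0.05), clock genes (0 of 17, 5 unadjusted), interferon response (0 of 23, 1 unadjusted) and bile acid genes (0 of 5, 3 unadjusted). Over all genes 14.5% were negative and 5.82% positive at that unadjusted level. The 6 MHC class II genes had a median of 1.94 with 0 passing (1 unadjusted). Their summed level was 48.1 to 551.9 CPM in sham jejunum and 109 to 1417 CPM in RYGB jejunum, and it was spread as widely within the groups as between them. Cd74, which chaperones these proteins, had a term of 2.01 (SE 1.35, adjusted p = 0.46). Of 18 proliferation genes 0 passed (3 unadjusted). Their summed level was 942 CPM in the RYGB duodenum of R2 and 446 CPM in that of R5, 89.8 CPM in that of R4 and 82.2 to 139.5 CPM in sham duodenum. In RYGB jejunum it was 102 CPM in R2, 324 CPM in R4 and 314 CPM in R5, against 75.1 to 146.9 CPM in sham jejunum. Top2a, which untangles DNA in dividing cells, stood at 223, 4.8 and 81.1 CPM in RYGB duodenum. Of 11 intestinal stem cell genes 0 passed (1 positive and 3 negative unadjusted). Their summed level was 773, 173 and 735 CPM in RYGB duodenum, against 123 to 155 CPM in sham duodenum. In jejunum it was 244 to 300 CPM in the paired RYGB libraries and 65.2 to 107.7 CPM in sham, so the groups overlapped in neither segment. The epithelial oxidase gene Duox2 was at 529.7 CPM in the sham duodenum of W3, against 2.3 CPM or less in the other sham duodenum libraries. R2 and R5 were also the animals with high duodenal Tfrc, and the part of cell turnover in that difference was not tested.

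Markers of other cells were read beside these results. The 11 pancreatic acinar genes in both tables had a median term of 5.76 with 0 passing, and 0 at an unadjusted p below 0.05. Summed, they held 53075, 79471 and 51803 CPM in the duodenum of W11, W12 and W14 and 715 CPM or less in the other paired libraries. The lipase Pnlip alone ranged from 10.0 to 22022 CPM over the sham duodenum. For the leading genes, the terms without those 3 animals were 6.05 for Akp3, 4.94 for Slc40a1, 2.36 for Fth1, -2.59 for Tfrc, -3.37 for Cd36, -3.58 for Cubn and -4.92 for Aqp1, over 2 sham and 3 RYGB animals. No stomach, nerve or glia, or adipocyte marker was in both tables. The 9 enterocyte markers summed to between 26192 and 72735 CPM in every paired library. In scraped villi, fewer cells of a type and less RNA per cell cannot be told apart.

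Sequences around a start of 4 of the leading genes were read in RefSeq's promoter windows (GRCm38.p6, 250 bases before to 50 after a start), which matched 8217 of the 10663 genes by symbol. Akp3 and Slc37a2 are shown because both fell in duodenum, and Cd36 and Cubn because both had negative terms. Each is given 5′ to 3′ on the gene's strand. Capitals mark the core letters of sites for the nuclear receptor HNF4 (CAAAG), the GATA site (AGATAA) and the CDX site (TTTATG), on either strand. The windows are chr1:87124704-87125003 (plus) for Akp3, chr9:37255689-37255988 (minus) for Slc37a2, chr5:17835847-17836146 (minus) for Cd36 and chr2:13491827-13492126 (minus) for Cubn. The Cd36 window is at an internal RefSeq start, 52.9 kb inside the 5′ end of the GENCODE gene.
Akp3: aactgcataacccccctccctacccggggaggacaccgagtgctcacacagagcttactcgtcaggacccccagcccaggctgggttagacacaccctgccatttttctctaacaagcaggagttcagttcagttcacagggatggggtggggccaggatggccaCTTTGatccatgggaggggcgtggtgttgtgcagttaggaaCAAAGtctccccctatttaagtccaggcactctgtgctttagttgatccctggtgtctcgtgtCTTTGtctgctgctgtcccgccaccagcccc
Slc37a2: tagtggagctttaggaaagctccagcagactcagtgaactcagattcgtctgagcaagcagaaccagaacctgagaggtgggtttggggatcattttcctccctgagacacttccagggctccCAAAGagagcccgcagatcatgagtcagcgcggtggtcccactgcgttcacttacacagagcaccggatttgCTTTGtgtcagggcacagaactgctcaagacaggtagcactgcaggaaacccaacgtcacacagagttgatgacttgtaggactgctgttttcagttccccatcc
Cd36: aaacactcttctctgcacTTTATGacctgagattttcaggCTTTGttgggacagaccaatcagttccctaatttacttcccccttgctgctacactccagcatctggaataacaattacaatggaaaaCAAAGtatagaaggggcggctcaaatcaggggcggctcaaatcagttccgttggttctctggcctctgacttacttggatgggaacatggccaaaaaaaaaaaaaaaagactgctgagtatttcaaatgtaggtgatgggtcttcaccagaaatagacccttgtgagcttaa
Cubn: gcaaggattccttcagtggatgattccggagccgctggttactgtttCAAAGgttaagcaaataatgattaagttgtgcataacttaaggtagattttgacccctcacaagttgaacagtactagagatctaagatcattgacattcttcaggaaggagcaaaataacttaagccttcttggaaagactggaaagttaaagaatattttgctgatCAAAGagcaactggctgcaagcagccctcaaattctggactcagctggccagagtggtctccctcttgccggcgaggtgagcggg
Akp3 holds 3 matches to the HNF4 core, and Slc37a2, Cd36 and Cubn hold 2 each. Cd36 also holds 1 CDX match, and none of the 4 holds the GATA letters. Across windows, the HNF4 core was present in 49.1% of those of positive genes, 56.3% of those of negative genes and 46.8% of all 10561 windows. The GATA site was in 10.5%, 9.55% and 6.68% and the CDX site in 10.5%, 9.55% and 6.4%, in the same order. The hypoxia element (ACGTG) was in 29.8%, 23.6% and 25.4%, the E-box (CACGTG, which contains that element) in 12.3%, 12.1% and 9.93%, the SREBP site (TCACNCCAC) in 0%, 2.51% and 1.12%, and the D-box (TTATGTAA) in 0%, 1.51% and 0.455%. The shares of the called genes rest on 57 and 199 windows and were not tested. A match describes letters in the window and is not evidence of binding.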

How the data were processed

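Messenger RNA of scraped villi was read from the gene tables of duodenum and jejunum deposited by the authors, which hold CPM with 1 decimal (read counts scaled to the library total). HTSeq did the counting, on the mouse build GRCm38, per the submitters' processing notes. Its version, the aligner, the annotation and whether strand was used were not given in the sources used here, so antisense, overlapping and near-identical genes may share reads. Each table lists only genes with at least 1 CPM in 4 or more of its libraries. The libraries' listed values sum to between 980414 and 991840 CPM. Total counts are not given and whole reads could not be recovered, so depth is unknown and no interval that needs it is printed.

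Groups and animals came from the titles and the codes in the descriptions. The pairing rests on those codes: within animals, deviations from the group means correlated at -0.22 to 0.57 between the segments, above 0.1 in 4 of 8, and 3 of 8 duodenum libraries correlated best with their own jejunum. The p-values of the paired fit measure how the jejunum minus duodenum difference varied between animals. Those of the single-segment fits measure how levels varied between animals.

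The test planned for counts was replaced by its stated fallback for CPM. Log2(CPM + 1) was fitted with limma 3.58.1 (R 4.3.3; trend and robust options), with a term per animal and a jejunum term for each surgery group (6 residual degrees of freedom), over all 10663 genes, two-sided, adjusted by Benjamini-Hochberg with a threshold of 0.05. Such differences understate the change of low genes. Each segment was also fitted alone over the same animals. Python 3.11.15, pandas 2.3.3 and matplotlib 3.10.9 made the tables and figures. Coordinates are GENCODE's for GRCm38; 17 symbols altered by a spreadsheet were restored from it.

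Named genes are, per direction, the 15 largest terms among called genes of at least 5 CPM whose groups do not overlap and whose symbol is not a predicted-gene name; up to 4 members of smallest p and 3 of highest CPM in each of 29 pathway and 19 cell type lists; 35 genes fixed by name; and the 10 genes most like Akp3. The text gives a part of them, and 1 called gene is not reported here. Members, lists and named genes were chosen with earlier results of these data known. Alternatives were scaling, pseudocounts of 0.1 and 5, a 5 CPM filter, no block, all 18 libraries, array weights, each animal left out, the pancreas-rich animals or genes left out, limma without its trend and robust options and, added after seeing the data, W3 and R5 left out. DESeq2 was planned for counts only and was not run. The other 4 tissue tables were not used.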

Additional observations from a re-analysis of the deposited data

Results flagged for a closer look

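The segment term is itself a difference between groups: 56 genes had a higher and 200 a lower RYGB effect in jejunum than in duodenum, and the values of the named ones are given above. Among the jejunum minus duodenum differences of the 5 sham animals, 72 named genes were examined and in 5 of them 1 animal lay far from the others; chance flags about 1 group in 20. These were Fth1 in W14 (-5.18), Gsn in W15 (1.42), Pklr in W3 (-1.40), Aadac in W15 (-0.21) and Slc5a1 in W15 (-0.99), on the log2 scale.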

How the results depend on the processing

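The call counts depend on the fit. The 55 named genes with a called term kept their sign under every alternative run. For 56 of the 56 positive and 197 of the 200 negative called genes the groups do not overlap. Leaving out animals cannot turn the sign of such genes, so the kept signs are no separate test of the directions. Without the block for the animal (no pairing), 2 genes were positive and 4 negative, and 3 of the 55 named calls were kept. Fits without 1 animal gave 16 to 73 positive and 43 to 249 negative genes, and W12, W14, W3, R2 and R5 each moved a count by more than 1.5 times. They gave 176 to 681 calls for the segment difference in sham animals, 2 to 75 in RYGB animals (lowest without R2), 5 to 1051 for RYGB minus sham in duodenum and 132 to 1501 in jejunum. Without the 3 pancreas-rich sham animals there were 0 and 0, and the sign of Cd74 turned (-0.026). Top2a, which was not called, ran from -2.68 without R4 to 0.91 without R2 over the fits without 1 animal. Median-of-ratios scaling left 120 negative genes and 35 calls in RYGB animals, and ended the calls of Mfsd7b, Slc15a1, Ace, Cyp3a25, Acaa2, Vnn1, Rdh7, Hnf4g, Maf, Slc26a3 and Nr3c1. All 18 libraries with a random effect gave 113 and 385, with 201 of the 256 shared. Array weights gave 1266 and 2094, with most weight on R5 (4.43 against 0.23 for R2). Limma without trend and robust gave 36 and 117, and leaving out W3 and R5, chosen after seeing the data, gave 33 and 99. All 9 libraries gave 35 calls in duodenum and 1405 in jejunum. Pseudocounts, the 5 CPM filter and removal of pancreatic genes kept both counts within 1.5 times. The causes were not tested. Depth is unknown, so low genes carry no counting error here.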
